A study of Homo sapiens with 204 samples.

Results

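XPC, DDB2, POLH and RRM2B are 4 DNA repair genes known to be induced by the transcription factor p53, and their rows were taken from the count tables of an siRNA screen of ribosomal proteins. All 4 rows were found by Ensembl gene ID in both tables, among 41379 genes in the RNA-seq table and 19217 in the Ribo-seq table. The cells were A549, derived from a human lung adenocarcinoma and carrying wild-type p53, transfected with siRNA at 40 nM for 24 h. Knockdown groups received siRNA against 1 of 75 ribosomal proteins, 44 of the large and 31 of the small ribosomal subunit, and control cells received non-targeting siRNA. Each lysate of cycloheximide-treated cells was divided between RNA-seq and Ribo-seq, which sequences the mRNA fragments that ribosomes protect from nuclease, here called footprints. Each assay had 91 knockdown libraries and 11 control libraries, and 16 targets had 2 libraries while 59 had 1. All libraries came from 1 cell line, so the values describe acute siRNA treatment of that line.

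When ribosome assembly is disturbed, ribosomal proteins such as RPL5 and RPL11 are known to bind MDM2, the ubiquitin ligase that degrades p53, so that p53 accumulates and activates its target genes. XPC and DDB2 find DNA lesions for nucleotide excision repair, the pathway that cuts out bulky damage such as that made by ultraviolet light. XPC binds helix distortions anywhere in the genome and recruits the repair machinery, and DDB2 is the lesion-binding subunit of the UV-DDB complex that hands ultraviolet lesions to XPC. POLH encodes DNA polymerase eta, which copies past ultraviolet lesions that stall the replicative polymerases. RRM2B encodes p53R2, a small subunit of ribonucleotide reductase that supplies deoxynucleotides for repair and for mitochondrial DNA outside S phase.

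XPC lies on chromosome 3 at 14145147-14178601, DDB2 on chromosome 11 at 47214454-47239217 and POLH on chromosome 6 at 43576185-43620523 (RefSeq, GRCh38.p14). RefSeq windows of 300 bases around annotated gene starts, 250 before and 50 after, were searched for the half-site of the p53 consensus element. The half-site has 10 letters and reads as its own reverse complement on the other strand. Windows of XPC, DDB2 and POLH are printed because each was called higher across the knockdowns in the comparisons below. Capitals mark matches to the half-site.
XPC, chr3:14178552-14178851, minus strand: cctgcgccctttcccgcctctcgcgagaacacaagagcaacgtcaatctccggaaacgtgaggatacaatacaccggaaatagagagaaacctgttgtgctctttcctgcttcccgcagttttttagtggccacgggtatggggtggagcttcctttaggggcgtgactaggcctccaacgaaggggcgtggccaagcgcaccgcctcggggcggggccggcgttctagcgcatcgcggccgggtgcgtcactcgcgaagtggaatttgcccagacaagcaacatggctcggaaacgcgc
DDB2, second annotated start, chr11:47214724-47215023, plus strand: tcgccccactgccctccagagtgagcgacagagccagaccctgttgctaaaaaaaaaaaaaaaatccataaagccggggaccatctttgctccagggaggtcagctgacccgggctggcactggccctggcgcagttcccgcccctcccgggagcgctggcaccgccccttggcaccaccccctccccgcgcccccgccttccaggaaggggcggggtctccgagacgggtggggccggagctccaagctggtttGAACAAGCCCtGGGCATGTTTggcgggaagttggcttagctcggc
POLH, chr6:43575935-43576234, plus strand: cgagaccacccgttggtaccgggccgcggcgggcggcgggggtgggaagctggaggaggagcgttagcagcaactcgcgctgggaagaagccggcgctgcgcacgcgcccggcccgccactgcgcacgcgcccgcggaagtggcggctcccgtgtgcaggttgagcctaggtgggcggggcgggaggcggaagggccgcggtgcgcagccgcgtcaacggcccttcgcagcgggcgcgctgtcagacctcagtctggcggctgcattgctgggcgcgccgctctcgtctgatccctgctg
The DDB2 window held 2 matches, GAACAAGCCC at bases 5 to 14 and GGGCATGTTT at bases 16 to 25 after the start, separated by 1 base. The XPC and POLH windows and the window of the first DDB2 start held 0, which says only that these letters are not in those windows. Among 35116 such windows of all genes, 2329 (6.63%) held at least 1 match and 10 (0.0285%) held a pair of matches at most 13 bases apart. A match is a description of the letters, and binding of p53 was not measured.

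RNA-seq totals lay between 18.8 and 63.6 M counts per library (M, mega; median 27.8) and Ribo-seq totals between 7.77 and 57.2 M (median 23.8). The lowest count of any of the 4 genes was 216 in RNA-seq and 170 in Ribo-seq. Counting error at such counts was not set against the spread between libraries of 1 target. For POLH footprints that spread had a pooled SD of 0.092 on the log2 scale. The targeted mRNA was below all 11 controls in 90 of 90 libraries with a matched symbol, with a median of 3.68% of the control mean left. Titles with a sample number (16 targets, 6 controls) and those without one (59 targets, 5 controls) form 2 sets, here called numbered and unnumbered, and the set was a term in each fit over both. The 9 epithelial and A549 markers were all measured and summed to between 5552 and 12310 CPM (each count relative to the total of its library) in knockdowns and between 5905 and 9253 CPM in controls. Markers of fibroblasts summed to between 4.26 and 49.5 CPM in knockdowns and between 10.6 and 25.5 CPM in controls, with COL1A1 the highest of them, and those of blood cells to between 0.438 and 4.71 CPM in knockdowns and between 0.703 and 3.77 CPM in controls. Markers of endothelial cells summed to at most 0.365 CPM in knockdowns and 0.316 CPM in controls. The part of these markers in the results was not tested. The columns of the count tables form 3 runs, of which the first holds the numbered titles other than RPS16 and 2 controls. Control 20_2, in run 1, stood apart in RNA-seq, and values that leaving it out changed are given beside the results they touch. The labels do not say whether the libraries of a group came from separate cultures, so p-values here reflect library-to-library spread, which may be technical. In the fits over all knockdowns the 75 targets stood as replicates of 1 group, and 16 of them entered with 2 libraries. The spread in those fits thus also holds differences between targets. For XPC mRNA the SD of the log2 ratio to control was 0.484 over targets and 0.059 between libraries of 1 target.

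All 4 repair mRNAs rose across the ribosomal protein knockdowns, and XPC rose furthest. Levels are CPM scaled by TMM, a scaling that makes libraries comparable, and can be compared between libraries of 1 gene only. XPC mRNA lay between 24.5 and 134 CPM in knockdown libraries with a median of 75.2, against 22.9 to 32.2 CPM in controls with a median of 27.2. The 2 groups of libraries barely overlapped. The fitted log2 fold change was 1.47 ± 0.16 (SE; 91 knockdown and 11 control libraries; adjusted p = 6.17e-13 by the quasi-likelihood test of edgeR, Benjamini-Hochberg over 15526 genes), or 2.78-fold. DDB2 mRNA lay between 51.5 and 174 CPM in knockdowns (median 105.8) and between 52.1 and 88.8 CPM in controls (median 58.8). Its highest control was 20_2, and without that library the highest control was at 65.97 CPM. DDB2 rose by 0.81 ± 0.12 on the log2 scale (adjusted p = 1.01e-07, edgeR). Background over all genes tested was 13.4% called higher, and 4 of these 4 genes were.

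POLH mRNA lay between 13.1 and 67.7 CPM in knockdowns (median 33.3) and between 13.6 and 20.7 CPM in controls (median 15.9). It rose by 1.07 ± 0.18 on the log2 scale (adjusted p = 1.10e-06, edgeR), or 2.09-fold. POLH overlaps GTPBP2, a GTP-binding protein gene, and the strand setting of the counting is not given in the sources used here, so reads of the overlap could be shared. GTPBP2 mRNA was called lower, at -0.37 ± 0.10 (adjusted p = 0.00167, edgeR). XPC overlaps the antisense gene XPC-AS1, whose median level was 0.206 CPM in knockdowns and 0.181 CPM in controls.

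RRM2B, on chromosome 8 at 102204501-102238961 (RefSeq, GRCh38.p14), had the most variable mRNA of the 4. It lay between 7.21 and 242 CPM in knockdowns (median 81.8) and between 6.24 and 72.1 CPM in controls (median 56.8), so the groups overlapped widely. It rose by 0.70 ± 0.26 on the log2 scale (adjusted p = 0.0285, edgeR). That call was lost without control 20_2 (0.61 ± 0.26, adjusted p = 0.0639), without control 20_1, 3 or 7 (adjusted p = 0.0523, 0.0691 and 0.0522) and in the numbered titles alone (0.46 ± 0.38, adjusted p = 0.454, edgeR). The p53 targets CDKN1A and MDM2 rose by 1.54 ± 0.34 and 1.37 ± 0.29.

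**Figure D1:**
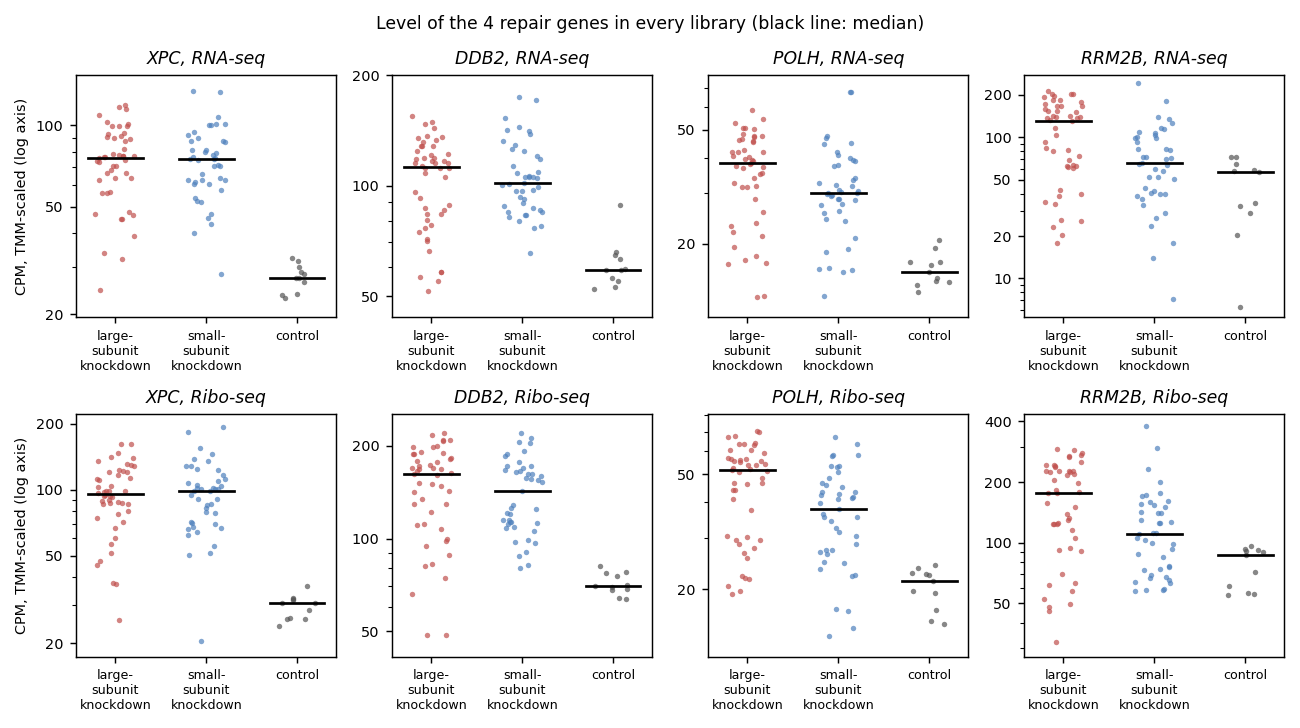
Level of XPC, DDB2, POLH and RRM2B in every library, as TMM-scaled CPM on log axes, in RNA-seq (upper row) and Ribo-seq (lower row). Each point is 1 library (48 large-subunit knockdown, 43 small-subunit knockdown and 11 control), and black lines are medians. XPC footprints in knockdowns sit above the highest control of 36.3 CPM for most libraries, while RRM2B mRNA in knockdowns overlaps the controls widely.

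Footprints rose on all 4 genes as well. XPC footprints lay between 20.4 and 193 CPM in knockdowns (median 97.4) and between 24.0 and 36.3 CPM in controls (median 30.5), a rise of 1.76 ± 0.18 on the log2 scale (adjusted p = 1.29e-13, edgeR, Benjamini-Hochberg over 12793 genes). DDB2 footprints lay between 48.6 and 221 CPM in knockdowns (median 154.8) and between 63.7 and 81.3 CPM in controls (median 69.9), a rise of 0.98 ± 0.15 (adjusted p = 6.92e-08, edgeR). The DDB2 controls were tight, and control 20_2 was among them at 68.5 CPM. POLH footprints lay between 13.8 and 70.4 CPM in knockdowns (median 43.4) and between 15.2 and 24.2 CPM in controls (median 21.4), a rise of 0.97 ± 0.17 (adjusted p = 6.16e-06, edgeR). RRM2B footprints lay between 32.1 and 379.6 CPM in knockdowns (median 129.9) and between 55.2 and 95.9 CPM in controls (median 87.2), a rise of 0.72 ± 0.22 (adjusted p = 0.00777, edgeR). In Ribo-seq 13.2% of all genes tested were called higher. The RRM2B footprint call was lost within either title set alone, at 0.52 ± 0.24 (adjusted p = 0.130) in the numbered and 0.97 ± 0.34 (adjusted p = 0.0699, edgeR) in the unnumbered titles.

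Translation efficiency, the ratio of footprint to mRNA CPM in 1 lysate, was called changed for XPC alone, and by only 1 of the tests run. The ratio for XPC lay between 0.732 and 1.69 in knockdowns (median 1.29) and between 0.864 and 1.28 in controls (median 1.10). The interaction of assay and knockdown was 0.27 ± 0.21 on the log2 scale for XPC, 0.16 ± 0.18 for DDB2 (0.10 ± 0.19 without control 20_2), -0.11 ± 0.23 for POLH and -0.0068 ± 0.32 for RRM2B (0.09 ± 0.33 without that control), and none was called (adjusted p = 1 for each, edgeR, Benjamini-Hochberg over 12480 genes). Of all genes, 0.353% were called higher in that test and 651 had an unadjusted p under 0.05. In the test that keeps each lysate's 2 aliquots together, limma on per-lysate log2 ratios, XPC was called higher by 0.24 ± 0.06 (adjusted p = 0.00852), where 1.55% of all genes were. DDB2 was at 0.11 ± 0.06 (adjusted p = 0.339), POLH at -0.12 ± 0.07 (adjusted p = 0.432) and RRM2B at -0.13 ± 0.14 (adjusted p = 0.670) in limma. The intervals of these differences (95%) ran from -0.0084 to 0.23 for DDB2, from -0.26 to 0.03 for POLH and from -0.40 to 0.13 for RRM2B.

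For single targets the log2 ratio to the average control of that title set was used, and a target counts as above the controls when each of its libraries exceeds every control of its set. XPC was above all controls in 73 of 75 targets, DDB2 in 67 (71 without control 20_2), POLH in 63 and RRM2B in 49, in RNA-seq. Over all genes and targets 23.3% of such values were above all controls. The median ratio over the 75 targets was 1.44 for XPC, 0.83 for DDB2, 1.06 for POLH and 0.84 for RRM2B, against -0.016 for the median gene. In Ribo-seq the counts were 73 for XPC, 72 for DDB2, 66 for POLH and 55 for RRM2B, where 23.8% of all such values were above all controls. Ratios of footprints to mRNA were above all controls in 38 targets for XPC, 40 for DDB2, 6 for POLH and 0 for RRM2B, where 14% of all such values were. Targets of 1 title set share their controls, and a target with 1 library has no replicate error of its own.

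XPC mRNA was among the highest in RPL8 (2.16), RPL17 (2.13), RPL30 (2.11) and RPL4 (2.04) knockdowns, as log2 ratios to control. The lowest XPC ratios were in RPL11 (-0.10), RPS27L (0.09), RPL41 (0.27) and RPLP0 (0.35) knockdowns. RPL11 and RPS27L were the 2 targets in which XPC mRNA stayed within the range of the controls. In these 2 XPC footprints lay below the 5 unnumbered controls (-0.16 and -0.47), where 23.4% of all values lay below the controls of their set. RPL11 knockdown had 25.5 CPM of XPC footprints, close to the lowest unnumbered control at 25.9 CPM, and numbered control 21_1 was lower, at 24.0 CPM. RPS27L is a paralog of the small-subunit protein RPS27 and is itself known as a p53 target. Between libraries of 1 target the pooled SD of the XPC ratio was 0.059, and 10 of the 74 gaps between neighbouring targets in the order exceeded it. Neighbouring gaps are small in any sorted list of 75 values, so such counts do not say how far the order is resolved. That SD came from the 16 numbered targets only, and the unnumbered controls had an SD of 0.213.

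DDB2 mRNA was among the highest in RPL13A (1.32), RPL19 (1.28), RPL21 (1.24) and RPS18 (1.23) knockdowns. It was lowest in RPL9 (-0.18), RPL24 (-0.16), RPLP0 (-0.09), RPL22 (-0.0097) and RPL29 (0.15, or 0.03 against controls of the same run) knockdowns. POLH mRNA was among the highest in RPL4 (1.84), RPL14 (1.73), RPL8 (1.68) and RPL17 (1.63) knockdowns and lowest in RPLP1 (-0.29), RPL41 (-0.28), RPS27L (-0.27), RPS15 (-0.029) and RPS14 (-0.0076) knockdowns. The acidic stalk proteins RPLP0, RPLP1 and RPLP2 all lay in the lower part of the POLH order, at 0.17, -0.29 and 0.13. RRM2B mRNA was highest in RPS18 (2.01), RPL9 (1.83), RPL36 (1.77), RPL19 (1.77) and RPL17 (1.75) knockdowns and lowest in RPS15 (-1.56), RPLP0 (-1.35), RPL11 (-1.21), RPS15A (-0.91) and RPL24 (-0.85) knockdowns. Footprints gave a similar picture for RPS18 (2.10) and RPLP0 (-1.44), but in RPS15 and RPS15A knockdowns RRM2B footprints were at -0.23 and -0.021. Part of this order depended on the controls. Against controls of the same run RRM2B mRNA was lowest in RPLP0 (-1.35), RPL11 (-1.21), RPS15 (-0.95), RPL10 (-0.78) and RPL26 (-0.48) knockdowns, RPS15A was at -0.30 and RPL24 at -0.24, and footprints were at 0.02 in RPS15 and 0.23 in RPS15A knockdown. In RNA-seq the pooled SD of the RRM2B ratio between libraries of 1 target was 0.349 and 0 of 74 neighbouring gaps exceeded it, while in Ribo-seq it was 0.086 and 11 did.

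**Figure D2:**
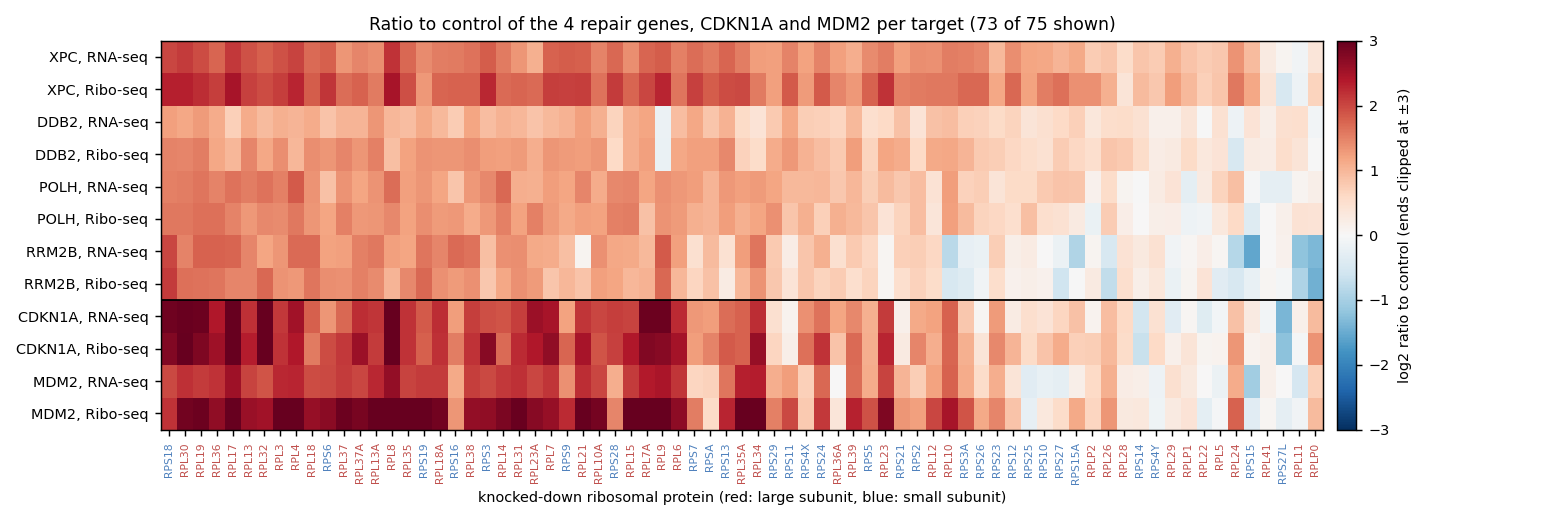
Log2 ratio to control of XPC, DDB2, POLH and RRM2B, and of CDKN1A and MDM2 below the line, for 73 of the 75 knocked-down proteins (columns; red labels large subunit, blue labels small subunit), in RNA-seq and Ribo-seq. Colour ends at the limits of the scale, where larger values are clipped; most XPC cells are red, and blue cells cluster at the right end, in RPLP0, RPL11 and RPS27L among others.

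The 4 genes did not follow 1 order, and several knockdowns separated them. RPL9 knockdown, of a large-subunit protein, had XPC at 1.81, POLH at 1.38 and RRM2B at 1.83 in RNA-seq, while DDB2 was at -0.18. Its footprints gave 2.28, 1.34 and 1.71, with DDB2 at -0.19. Only 1 library stands behind RPL9. RPL10 knockdown had XPC at 1.53, DDB2 at 0.93 and POLH at 1.24 in RNA-seq, while RRM2B was at -0.81, and its footprints had 1.58, 1.16 and 1.24 with RRM2B at -0.48. RPLP0 knockdown, of the base of the ribosomal stalk, left DDB2 at -0.09 and RRM2B at -1.35 in RNA-seq. Its footprints had XPC at 0.66, DDB2 at -0.013 and RRM2B at -1.44.

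Knockdown of RPL5 or RPL11, the proteins known to hold MDM2, gave mRNA ratios below the median target for each of the 4 genes. In RPL11 knockdown XPC was at -0.10, DDB2 at 0.51, POLH at 0.09 and RRM2B at -1.21 in RNA-seq, with footprints at -0.16, 0.38, 0.45 and -0.94. In RPL5 knockdown XPC was at 0.81, DDB2 at 0.46, POLH at 0.66 and RRM2B at 0.06 in RNA-seq, with footprints at 0.84, 0.41, 0.32 and -0.33. CDKN1A was at 0.16 in RPL11 and -0.07 in RPL5 knockdown, and MDM2 at -0.51 and -0.18, all in RNA-seq. DDB2 mRNA was above all unnumbered controls in both knockdowns, and XPC mRNA in RPL5 knockdown only. For DDB2 numbered control 20_2 was higher than both, at 88.8 CPM against 83.4 CPM in RPL11 and 80.4 CPM in RPL5 knockdown. In 9 targets neither CDKN1A nor MDM2 mRNA was above all controls (RPL11, RPL22, RPL29, RPL5, RPS10, RPS12, RPS15, RPS26 and RPS27L). Of these, XPC was above in 7, DDB2 in 5, POLH in 5 and RRM2B in 0. Over all genes and all 75 targets 23.3% of mRNA values were above, and the share within these 9 targets was not computed. MDM2 mRNA in the numbered controls lay between 53.7 and 170.8 CPM in run 1 and between 258.3 and 262.1 CPM in run 3. RPL29 (219.4 and 261.3 CPM), RPS12 (227.2 and 216.6) and RPS26 (265.4 and 236.8), all in run 1, exceeded each run 1 control. Their place among the 9 thus rested, for MDM2, on the run 3 controls. RPS10 and RPS15 did not exceed the run 1 controls. Control 20_2 was the highest numbered control for CDKN1A mRNA, and without it the 9 targets were 6, as RPS10, RPS12 and RPS15 left the group. Of the 6, XPC was above in 4, DDB2 in 5, POLH in 3 and RRM2B in 0. In Ribo-seq the group was another, of 8 targets (RPL11, RPL22, RPL29, RPL41, RPL5, RPS14, RPS15 and RPS27L). There XPC was above in 6, DDB2 in 8, POLH in 3 and RRM2B in 2, where 23.8% of all footprint values over the 75 targets were. In RPL29 knockdown MDM2 footprints were at 99.95 and 112.1 CPM, above each run 1 control (at most 76.8 CPM). They were below the run 3 controls (at least 123.9 CPM).

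The ratios of mRNA and footprints went together across targets. Over the 75 targets Pearson's r between the RNA-seq and the Ribo-seq ratio was 0.956 for XPC, 0.937 for DDB2, 0.910 for POLH and 0.932 for RRM2B, as a description, since each pair of values came from 1 lysate and each assay shares its controls. For RRM2B r was 0.834 in the 16 numbered and 0.966 in the 59 unnumbered targets. The spread of the footprint ratio over targets (SD) was 0.581 for XPC, 0.448 for DDB2, 0.537 for POLH and 0.741 for RRM2B.

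Single targets stood at the ends of the order of translation efficiency, given here as the log2 ratio of footprint to mRNA CPM relative to the controls. RPL23 knockdown, of a large-subunit protein that is also known to bind MDM2, had the highest value of the 75 targets for XPC (0.62) and for DDB2 (0.59), while POLH was at -0.57. Its single lysate had 77.2 CPM of XPC mRNA and 130.6 CPM of XPC footprints, 88.7 and 172.5 CPM of DDB2, and 31.5 and 29.6 CPM of POLH. RPS27L knockdown had the lowest value for XPC (-0.59), with 28.1 CPM of mRNA and 20.4 CPM of footprints, while POLH was at 0.40. For DDB2 the lowest value was in RPL24 knockdown (-0.38). These extremes were picked from 75 values, and those of RPL23 and RPS27L have 1 lysate each.

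**Figure D3:**
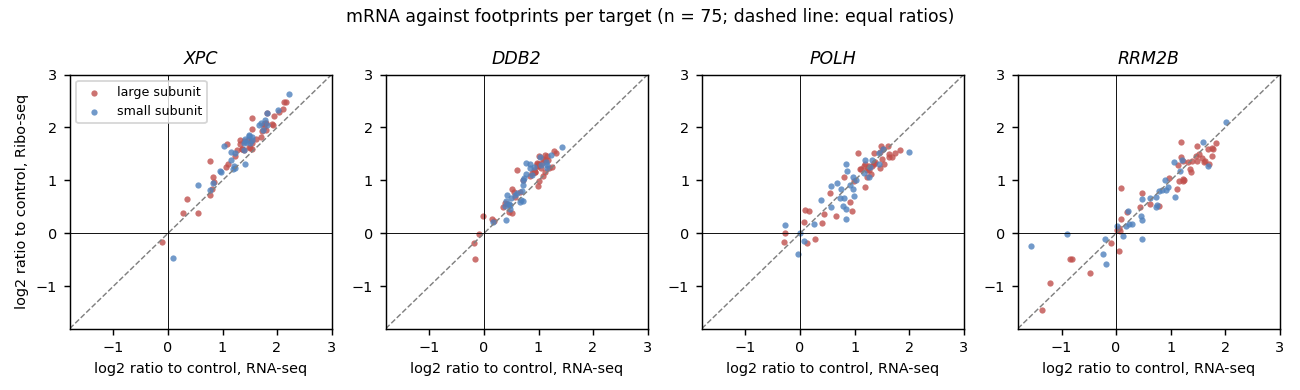
Log2 ratio to control in Ribo-seq (vertical axis) against RNA-seq (horizontal axis) for the 75 targets, 1 panel per gene; red points are large-subunit and blue points small-subunit targets, and the dashed line marks equal ratios. Most XPC points lie above the line, with a median of 1.71 in Ribo-seq and 1.44 in RNA-seq, and the RRM2B panel has points far to the left, with RPS15 at -1.56 in RNA-seq and -0.23 in Ribo-seq.

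The 16 targets with 2 libraries allow a test per target against the 6 numbered controls. XPC was called higher in 16 of 16 in both assays, where 10.8% of all gene and target pairs were called higher in RNA-seq and 13.9% in Ribo-seq. XPC mRNA rose by 1.85 ± 0.07 in RPL21 and by 0.99 ± 0.07 in RPS15 knockdown (adjusted p = 4.81e-16 and 4.72e-10, edgeR), and XPC footprints rose by 2.11 ± 0.10 and 1.18 ± 0.10 in the same knockdowns. In RPL21 knockdown the 2 libraries had 99.2 and 99.5 CPM of XPC mRNA and 127.6 and 129.1 CPM of XPC footprints, above every control. DDB2 was called higher in 14 targets in RNA-seq and 15 in Ribo-seq, POLH in 14 and 12, and RRM2B in 3 and 8. Within run 1 alone, 15 targets against 4 controls, RRM2B was called higher in 6 in RNA-seq and 9 in Ribo-seq. With 1 library per target, whose spread is taken from the controls, fewer were called in RNA-seq: leaving out replicate 1 or replicate 2 of every target left XPC in 4 targets, POLH in 1, and DDB2 and RRM2B in 0.

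RPL24 knockdown gave opposite calls among the 4 genes. RPL24 is a large-subunit protein at the bridge between the subunits. Its 2 libraries had 93.6 and 88.9 CPM of XPC footprints, against 24.0 to 36.3 CPM in the controls, a rise of 1.61 ± 0.10 (adjusted p = 1.28e-12, edgeR). They had 48.7 and 48.6 CPM of DDB2 footprints, below every control, a log2 fold change of -0.49 ± 0.09 (adjusted p = 0.000117, edgeR). RRM2B footprints were at 48.0 and 49.8 CPM, also below every control, a log2 fold change of -0.48 ± 0.15 (adjusted p = 0.0170, edgeR). In Ribo-seq 15.4% of all gene and target pairs were called lower. In RNA-seq DDB2 was at -0.16 ± 0.14 and RRM2B at -0.85 ± 0.47 in RPL24 knockdown, and neither was called (adjusted p = 0.419 and 0.197, edgeR). Within run 1 the footprint changes were -0.46 ± 0.08 for DDB2 (adjusted p = 5e-05) and -0.24 ± 0.09 for RRM2B (adjusted p = 0.0250, edgeR). There RRM2B mRNA was at -0.24 ± 0.41 (adjusted p = 0.680), while without control 20_2 it was called lower at -1.07 ± 0.34 (adjusted p = 0.0177, edgeR).

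RPS15 knockdown, of a small-subunit protein, also separated the 4 genes. Beside the rise of XPC in both assays, POLH mRNA had 16.3 and 16.3 CPM, inside the controls, at -0.0053 ± 0.10 (adjusted p = 0.971, edgeR), and POLH footprints had 13.8 and 14.7 CPM, below every control, a log2 fold change of -0.42 ± 0.14 (adjusted p = 0.0271, edgeR). RRM2B mRNA was called lower at -1.43 ± 0.49 (adjusted p = 0.0286, edgeR), where 12.5% of all gene and target pairs in RNA-seq were called lower. Its 2 libraries had 7.21 and 17.9 CPM, which differ widely, while the footprints were at 58.5 and 57.6 CPM, inside the controls, and not called (-0.24 ± 0.15, adjusted p = 0.258, edgeR). Neither of these lower calls held within run 1, where POLH footprints were at -0.25 ± 0.10 (adjusted p = 0.0686) and RRM2B mRNA at -0.80 ± 0.42 (adjusted p = 0.166, edgeR). Run 1 holds control 20_2, and without that control RRM2B mRNA in RPS15 knockdown was called lower at -1.645 ± 0.36 (adjusted p = 0.000537, edgeR). In that setting RRM2B mRNA was also called lower in RPS15A knockdown, at -1.05 ± 0.34 (adjusted p = 0.0160, edgeR). The POLH call was also lost with total-count scaling (adjusted p = 0.0512) and without a filter on low counts (adjusted p = 0.0779, edgeR).

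**Figure D4:**
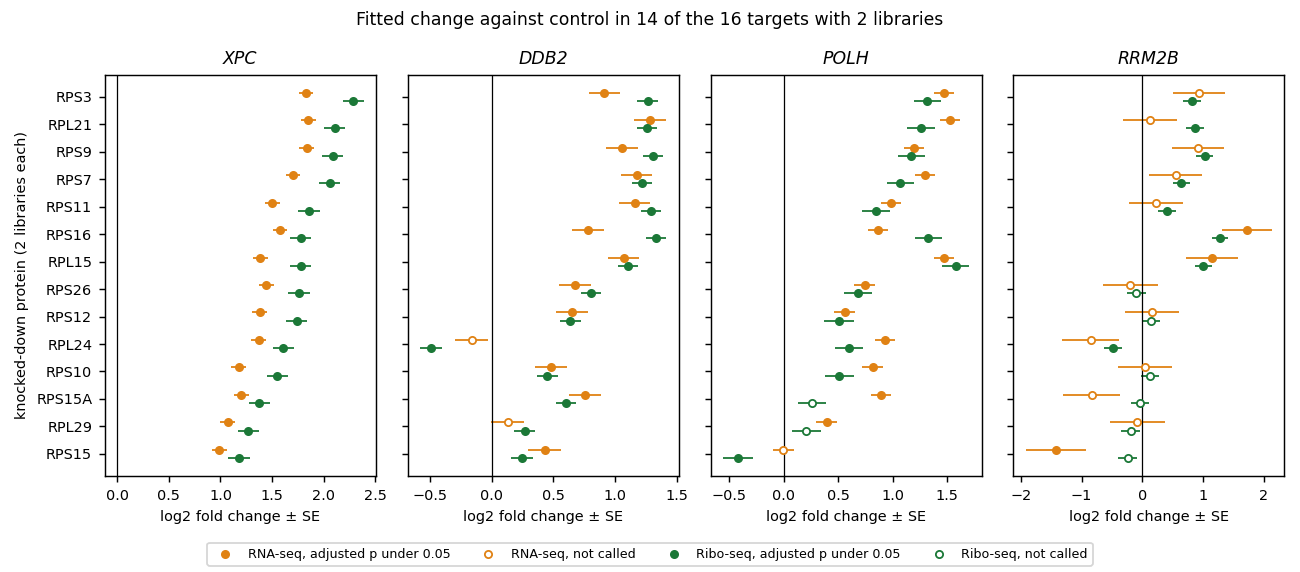
Fitted log2 fold change (horizontal axis, bars ± SE) of the 4 genes in 14 of the 16 targets with 2 libraries, knockdown against the 6 numbered controls, in RNA-seq (orange) and Ribo-seq (green). Filled points had an adjusted p under 0.05 and open points did not; all XPC points are filled and right of 0, while most RRM2B points in RNA-seq are open, with wide bars.

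With the title set as a term, no difference between large-subunit and small-subunit knockdowns was called in any of the 4 genes. The median XPC mRNA was 75.9 CPM in 48 large-subunit and 74.8 CPM in 43 small-subunit libraries, with a difference of 0.06 ± 0.10 on the log2 scale (95% interval -0.13 to 0.25). For DDB2 the difference was 0.03 ± 0.08 (-0.13 to 0.19) and for RRM2B 0.14 ± 0.17 (-0.20 to 0.49), in RNA-seq. RRM2B mRNA had medians of 131.1 CPM in large-subunit and 65.4 CPM in small-subunit libraries. Its median ratio to control was 1.192 over large-subunit and 0.625 over small-subunit targets in RNA-seq, and 1.038 and 0.526 in Ribo-seq. The median ratio was higher over large-subunit targets for each of the 4 genes in both assays, for XPC footprints only as 1.724 against 1.711. No test was run on these medians, and the fits with the title set called none of the 4 genes. POLH mRNA had medians of 38.2 CPM in large-subunit and 30.0 CPM in small-subunit libraries, a difference of 0.22 ± 0.11 (-0.0019 to 0.44; adjusted p = 0.129, edgeR). In Ribo-seq the differences were 0.06 ± 0.11 for XPC, -0.024 ± 0.10 for DDB2, 0.17 ± 0.11 for POLH and 0.16 ± 0.14 for RRM2B. Their adjusted p lay between 0.280 and 0.894 (edgeR), so 0 of 4 genes were called in either assay, where 31.6% of all genes were called in RNA-seq and 22.1% in Ribo-seq. Without the title set term the RRM2B difference was called in both assays (0.61 ± 0.19, adjusted p = 0.00594, in RNA-seq and 0.44 ± 0.14, adjusted p = 0.0121, in Ribo-seq) and POLH in Ribo-seq (0.29 ± 0.11, adjusted p = 0.0226, edgeR).

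The levels of RRM2B mRNA moved with the place of a library in the tables. RRM2B mRNA had a median of 39.8 CPM in the 30 knockdown libraries and 24.7 CPM in the 4 controls of run 1. In run 2 it had a median of 131.9 CPM in 45 knockdown libraries and 65.2 CPM in 5 controls, and in run 3 of 105.5 CPM in 16 knockdown libraries and 58.6 CPM in 2 controls. Within each run the knockdown median of RRM2B mRNA was above the control median. MDM2 mRNA differed by run as well, with control medians of 140.3, 262.4 and 260.2 CPM in runs 1, 2 and 3. Its knockdown medians were 352.1, 952.9 and 520.9 CPM. For CDKN1A mRNA the control medians went the other way, at 195.9, 140 and 140.8 CPM. Control footprints of the other genes differed by run too. POLH lay between 15.2 and 19.4 CPM in run 1, 19.7 and 24.2 in run 2, and 22.6 and 23.7 in run 3. DDB2 lay between 63.7 and 68.5 CPM in run 1, 69.4 and 81.3 in run 2, and 69.9 and 75.3 in run 3. XPC went the other way, between 30.5 and 36.3 CPM in run 1, 25.9 and 31.8 in run 2, and 24.0 and 25.9 in run 3. Controls 11_1, 11_2, 20_1 and 20_2 of run 1 had 29.03, 34.5, 20.4 and 6.24 CPM of RRM2B mRNA, with 61.3, 55.2, 55.7 and 56.6 CPM of footprints. The ratio of footprint to mRNA CPM was thus 8.46 in control 20_2, against 1.59 to 2.69 in the other 3, and 7.65 in 1 of the RPS15 libraries. With the run as a term in place of the title set, an alternative added once the levels had been seen, RRM2B rose by 0.98 ± 0.24 in RNA-seq (adjusted p = 0.000718) and 0.86 ± 0.21 in Ribo-seq (adjusted p = 0.00101, edgeR).

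Both RPS16 libraries lie outside run 1, while 4 of their 6 controls are in it. RRM2B in RPS16 knockdown was at 1.72 ± 0.41 (adjusted p = 0.00336, edgeR) in RNA-seq with these controls, and at 0.92 against controls of the same run. What the runs stand for is not given in the sources used here, and their part in the values of RRM2B and the other genes was not tested further.

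**Figure D5:**
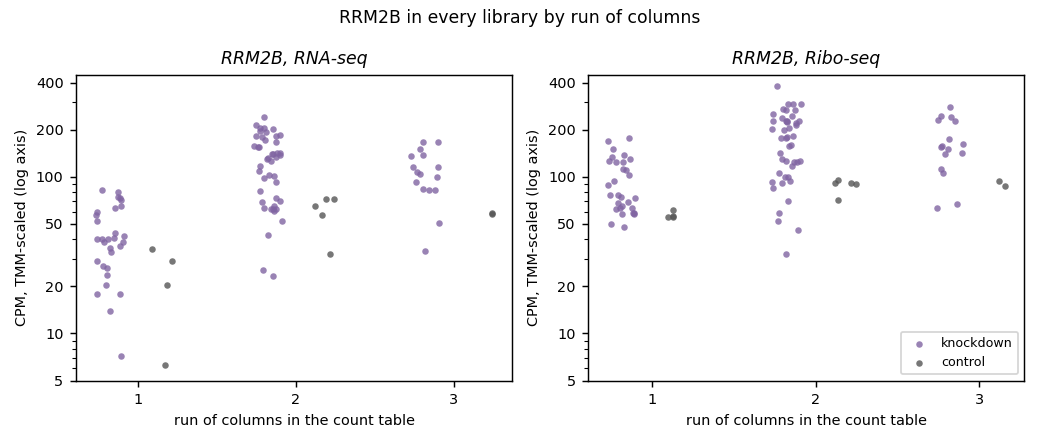
RRM2B level in every library (TMM-scaled CPM, log axis) by run of columns in the count table, RNA-seq on the left and Ribo-seq on the right; purple points are knockdown and grey points control libraries. Run 1 is low in RNA-seq for knockdown and control libraries alike, with a control at 6.24 CPM, and less so in Ribo-seq, where its 4 controls lie between 55.2 and 61.3 CPM.

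The pathways around the 4 genes did not rise with them as whole lists. Of 32 other nucleotide excision repair genes 5 rose and 2 fell in RNA-seq, and 8 rose and 4 fell in Ribo-seq, with medians of 0.0022 and -0.025 on the log2 scale against -0.027 and -0.0036 over all genes. The TFIIH subunits GTF2H3 and GTF2H1 rose by 0.60 ± 0.11 and 0.49 ± 0.10 in RNA-seq. DDB1, the partner of DDB2 in UV-DDB, is in this list and was not called in either assay. Of 20 translesion synthesis genes 1 rose (POLD4) and 7 fell in RNA-seq, and 3 rose and 7 fell in Ribo-seq, with medians of -0.17 and -0.21. USP1, a deubiquitinase of PCNA, was at -0.82 ± 0.21, RAD18, the ligase that marks PCNA for polymerase eta, at -0.63 ± 0.16 and POLD2, a polymerase delta subunit, at -0.30 ± 0.07, all called lower in RNA-seq. All genes together were called lower in 17.2% in RNA-seq and 13.5% in Ribo-seq, and higher in 13.4% and 13.2%.

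Of 18 deoxynucleotide supply genes 0 rose and 6 fell in RNA-seq (median -0.09 for the list), and 2 of 17 tested rose and 6 fell in Ribo-seq. RRM2, the S-phase counterpart of RRM2B, was among those that fell in both assays. The 3 with the smallest p, thymidine kinase TK1, the dUTPase DUT and thymidylate kinase DTYMK, were at -0.64 ± 0.17, -0.49 ± 0.14 and -0.42 ± 0.13 in RNA-seq. Of 17 other genes reported as p53 responsive, a mix of repair genes and stress regulators, 6 rose and 3 fell in RNA-seq. In Ribo-seq 7 rose and 3 fell, and the medians in RNA-seq and Ribo-seq were 0.09 and 0.0077. Among those that rose in both assays were ERCC5, also counted in the excision repair list, and the stress regulators SESN1, SESN2 and PPM1D. Over all genes 13.4% rose and 17.2% fell in RNA-seq, and 13.2% rose and 13.5% fell in Ribo-seq, so the share of this list that fell in RNA-seq was near that of all genes. SESN1 and SESN2, sestrins that respond to stress, rose by 1.53 ± 0.27 and 0.74 ± 0.18, and the phosphatase PPM1D by 0.73 ± 0.16. The glycosylase OGG1 and FANCC were among the members of this list that fell in RNA-seq.

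The genes whose RNA-seq ratio was most like each of the 4 over the 75 targets were ranked by Pearson's r among 11648 genes with a mean of at least 5 CPM. For XPC they were CYFIP2 (0.888), POLH (0.875), ACTA2 (0.860), KDM4B (0.842) and EPS8L2 (0.842). For POLH they were CYFIP2 (0.891), FDXR (0.885), ACTA2 (0.885), SPATA18 (0.880) and XPC (0.875). XPC and POLH thus stood among each other's 5 most similar genes. For DDB2 they were EPS8L2 (0.730), ABCA12 (0.717), PTPRU (0.712), TP53I3 (0.708) and ANK1 (0.692), with POLH at rank 7 and XPC at rank 35. For RRM2B they were TIGAR (0.829), FBXO22 (0.823), FAS (0.805), BLOC1S2 (0.797) and CCDC90B (0.774), with POLH at rank 72, XPC at 120 and DDB2 at 303. The targets of a title set share controls, so these r are descriptions.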

How the data were processed

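RNA-seq and Ribo-seq were made from aliquots of each A549 lysate, per the labels' protocols. The authors deposited whole-number read counts per Ensembl gene, over exons in RNA-seq and over coding sequences in Ribo-seq, per the file headers, with libraries neither normalized nor pooled. Reads were processed with bcl2fastq 2.20.0.422, cutadapt 1.8.1 and STAR 2.6.1 on GRCh38, per the submitters' processing notes; the counting program, its strand setting and its treatment of reads shared between genes are not given in those sources. Symbols came from a table of Ensembl IDs. Columns were matched to samples by name, 0 value columns stayed unmatched, and the columns of controls 21_1 and 21_2 show only their group. No pair of libraries of 1 group agreed within sampling noise (chi-square per degree of freedom at least 3.26 over 71 pairs in RNA-seq and 3.64 in Ribo-seq).

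Genes reaching 1 CPM in 11 or more libraries were tested, 15526 in RNA-seq, 12793 in Ribo-seq and 12480 in both, with edgeR 4.0.16 (glmQLFit, glmQLFTest, TMM) in R 4.3.3, Benjamini-Hochberg adjustment over all genes tested and a threshold of 0.05. Knockdown and control, and large- and small-subunit knockdowns (the controls entering as another group), were compared with the title set as a term, and translation efficiency as an interaction over both assays. Each of the 16 targets with 2 libraries was compared with the 6 numbered controls in 1 fit. Ratios per target are log2 of TMM-scaled CPM with a pseudocount of 0.5 and understate changes of low levels. SE were derived from the fold change and its test statistic, and 95% intervals from the SE. DESeq2 1.42.0 and limma 3.58.1 (trend, prior count 2) served as alternatives. The fits were tested on simulated data. Every setting that uses the runs of columns was added after the data had been seen.

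The 4 genes and the gene lists were chosen with earlier results of these data known. Named beside the 4 genes are CDKN1A and MDM2, the 3 members of each list with the smallest p in RNA-seq, the 5 most similar genes, and the 5 targets with the highest and lowest ratio of each gene. DDB1, RRM2, POLD4, OGG1, FANCC, ERCC5 and the genes that overlap or share the promoter element were named outside this rule, after their values were seen. So were RPL5, RPL10, RPL11, RPL21, RPL23, RPL24, RPS15 and RPS16 for the accounts of single knockdowns. Some genes and targets that this rule names are not reported here, and figures with target names leave such targets out; counts and tests include them.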

Additional observations from a re-analysis of the deposited data

Results flagged for a closer look

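Of 16 sets of control values, by gene, assay and title set, 2 held a library far from the others, and at the level used about 5% of such sets are marked by chance. XPC mRNA was at 32.2 CPM in control 11_1, the highest of the 6 numbered controls. RRM2B footprints were at 71.4 CPM in control 1, the lowest of the 5 unnumbered controls.

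Large-subunit and small-subunit knockdowns differed in CDKN1A and MDM2, p53 targets that were followed beside the repair genes. CDKN1A was higher in large-subunit than in small-subunit knockdowns, by 0.73 ± 0.21 in RNA-seq and 0.61 ± 0.20 in Ribo-seq (log2 difference ± SE; adjusted p = 0.00409 and 0.0188, edgeR, Benjamini-Hochberg). MDM2 was higher as well, by 0.75 ± 0.17 and 0.99 ± 0.20 (adjusted p = 0.000254 and 0.000108, edgeR). XPC, DDB2, POLH and RRM2B were not called in that comparison, and whether they differ from CDKN1A and MDM2 in this respect was not tested.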

How the results depend on the processing

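XPC, DDB2 and POLH kept their direction and their calls in both assays, knockdown against control, under every alternative run (DESeq2, total-count scaling, no filter, either title set, no set term, a run term and each control left out). RRM2B lost its RNA-seq call at 0.46 in the numbered titles and 0.61 without control 20_2, and over the other controls left out ran between 0.62 and 0.85. The call was also lost without control 20_1, 3 or 7. Its Ribo-seq call was lost at 0.52 in the numbered and 0.97 in the unnumbered titles. The replicate number did not pair libraries (median r of -0.03 in RNA-seq and 0.04 in Ribo-seq between the differences of 120 pairs of targets, 35 and 28 of them over 0.1), and with a replicate block RRM2B was at 0.46 and 0.52, uncalled. The block changed no count of called targets by over 1.5 times.

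For translation efficiency, limma alone called XPC (0.24). The RRM2B interaction changed sign, uncalled, at 0.020 without a filter, 0.044 in the numbered titles, 0.042 with the replicate block, 0.046 with total-count scaling and 0.086 without control 20_2, and between -0.077 and 0.059 over the other controls left out. Above all controls in the ratio of footprints to mRNA were 3 targets for RRM2B without control 20_2 and 5 with controls of the same run, and 12 for POLH with controls of the same run.

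For large- against small-subunit knockdowns the differences of XPC and DDB2 changed sign, uncalled, without the set term (-0.0080 and -0.035 in RNA-seq, -0.025 and 0.075 in Ribo-seq), as did DDB2 with total-count scaling (-0.026) in RNA-seq and, in Ribo-seq, with a run term (0.0014) and in the unnumbered titles (0.11). In the numbered titles XPC, DDB2 and RRM2B were at -0.066, -0.16 and -0.25 in RNA-seq, and XPC and RRM2B at -0.12 and -0.11 in Ribo-seq. With the replicate block these were -0.067, -0.16 and -0.25, and -0.12 and -0.11. Without the set term RRM2B was called at 0.61 in RNA-seq and 0.44 in Ribo-seq, and POLH at 0.29 in Ribo-seq; the causes were not tested.

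Of the 16 targets, RRM2B was called higher in RNA-seq in 6 without a filter, 1 with total-count scaling and, of 15, 6 within run 1. Without replicate 1 or replicate 2 of every target, where only the controls give the spread, RNA-seq calls were 4 for XPC, 0 for DDB2, 1 for POLH and 0 for RRM2B, and Ribo-seq calls 8 to 9 for DDB2, 5 for POLH and 1 to 2 for RRM2B.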

Other observations

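The 10 promoter windows that hold a pair of p53 half-sites at most 13 bases apart belong to few expressed genes. Beside DDB2, those tested in RNA-seq were LNCTAM34A, a long noncoding RNA, at 1.66 ± 0.26 (adjusted p = 4.73e-07, edgeR, Benjamini-Hochberg), the noncoding RNA PURPL at 0.90 ± 0.26 (adjusted p = 0.00565), MCC at 0.57 ± 0.20 (adjusted p = 0.0187) and the dynein heavy chain DYNC2H1 at 0.10 ± 0.19 (adjusted p = 0.736). All but DYNC2H1 were called higher across the knockdowns, where 13.4% of all genes were. In Ribo-seq MCC was at 0.84 ± 0.40 (adjusted p = 0.107) and DYNC2H1 at 0.55 ± 0.13 (adjusted p = 0.000676, edgeR). Windows of genes not tested give no value.

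Ranked by footprints in place of mRNA, the genes most like RRM2B over the 75 targets were TP53I3 (r = 0.804), FBXO22 (0.787), TIGAR (0.771), FDXR (0.770) and ABCA12 (0.766), with POLH at rank 16, XPC at 72 and DDB2 at 78 among 10191 genes. For POLH the leading genes were DNAI3 (0.841), FDXR (0.837), CYFIP2 (0.832), FBXO22 (0.830) and TIGAR (0.826), with RRM2B at rank 25. XPC was at rank 38 of the POLH order in footprints, against rank 5 in mRNA.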
